A study of Mus musculus with 8 samples.

Results

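The 9 genes described here are Msr1, Olr1, Cd36, Scarb1, Cd68, Cd163, Stab1, Axl and Mertk. They encode receptors, mostly of the cell surface, with which phagocytes take up modified lipoproteins, lipids, haemoglobin, bacteria and dying cells. They were chosen by name, each was matched through its RefSeq identifier to 1 of the 24625 rows of the deposited expression table, and no gene had a second row. All samples came from wild type (WT) mice, aged 6 to 12 weeks by the labels, where the study's methods give a narrower range. S. pneumoniae (SP), a bacterium that causes pneumonia, was instilled through the trachea into the left lung in 1 group, and phosphate-buffered saline (PBS) in the other, both at 2.3 µl per g of body weight. Lungs were digested 24 h later, and cells that bound magnetic beads through an antibody against Ly6G, a neutrophil surface protein, were collected without further sorting. Each group had 4 samples, and each sample had its own Affymetrix array.

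Scavenger receptors were first defined by the uptake of chemically modified low density lipoprotein, which the classical lipoprotein receptor does not recognise. Most of them bind many unrelated polyanions, lipids and microbial surfaces, and the cholesterol that they bring in is esterified and stored in droplets or exported again. In the lung they are best known on alveolar macrophages, which take up surfactant lipid, bacteria and dead neutrophils, while Cd36 and Scarb1 are also abundant on endothelium. Axl and Mertk are receptor tyrosine kinases that recognise phosphatidylserine on dying cells through the bridging ligands Gas6 and protein S.

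Of the 9 receptor genes, 3 were higher and 2 were lower in neutrophil preparations from mice with pneumonia, and 4 did not pass the test. Msr1 and Olr1, which bind modified lipoproteins, rose 10.4-fold and 11.0-fold, and Cd68 rose 2.50-fold. The class B receptors Cd36 and Scarb1 fell 3.59-fold and 1.75-fold. Cd163, Stab1, Axl and Mertk did not pass (limma, threshold 0.05). Over all rows of the table, 44.1% passed the same threshold, 21.5% higher and 22.6% lower in SP, so that 5 calls among 9 genes (55.6%) is a share close to that of the whole table. At a difference of at least 2-fold, 4 of the 9 genes were called, against 17.6% of all rows. With rows below the median brightness left out, 7424 rows were called and 3933 at 2-fold, against 10860 and 4341 over all rows. Calls were thus more frequent among brighter rows, where all receptors but Cd163 lay, so the shares of all rows are a low yardstick for them. The groups did not overlap in 5 of the 9 genes, against 49.0% of all rows. The median difference of the 9 genes was 0.26 log2 units, and that of all rows was 0.10.

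**Figure D1:**
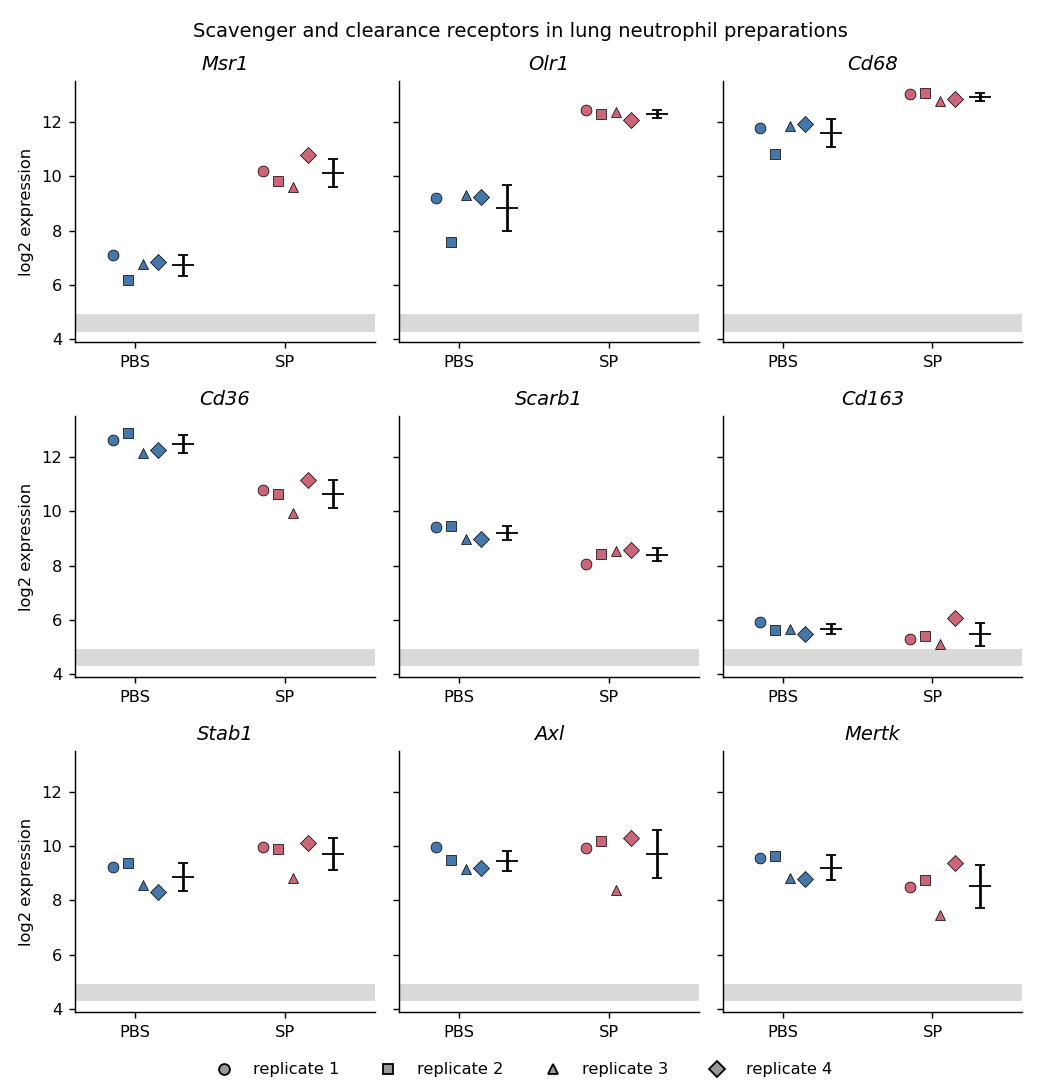
Log2 expression of the 9 receptor genes in each array, with 4 PBS arrays in blue and 4 SP arrays in red, a symbol for each replicate number, and the mean with its SD in black. The grey band marks the values of 3 Y-linked genes (4.33 to 4.90), used here as a measure of background. The groups do not overlap in the top row and in Cd36 and Scarb1, and heights cannot be compared between genes.

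Some arrays stood apart from others of their group, and they bear on several of the values below. Array medians lay between 6.06 and 6.20 in PBS and between 5.78 and 5.91 in SP. SP replicate 3 had the lowest mean correlation with its own group (r = 0.973 across rows, which are not independent of each other). It was the lowest SP array for 7 of the 9 receptors, all but Scarb1 and Olr1, and SP replicate 4 was the highest for 7, all but Olr1 and Cd68. PBS replicate 2 was the lowest PBS array for Msr1, Olr1 and Cd68. Among genes called at the adjusted p threshold, 51.1% were lower in SP, but 22.1% were lower after each array was centred on its median, which raised every SP difference by 0.28 log2 units. The study describes each sample as coming from a mouse, which the labels do not state, and the p-values measure the spread between these samples.

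Msr1 (NM_001113326), the class A scavenger receptor that binds acetylated lipoprotein and bacterial lipids, read 7.10, 6.20, 6.76 and 6.84 log2 units in the 4 PBS arrays and 10.21, 9.84, 9.60 and 10.79 in the 4 SP arrays. Every SP value lay above every PBS value. The mean rose from 6.73 ± 0.38 to 10.11 ± 0.52 (SD, n = 4 each), a difference of 3.38 log2 units (95% confidence interval 2.74 to 4.02, adjusted p = 5e-05 by limma). The other macrophage receptor of this class, Marco, which binds bacteria on alveolar macrophages, read 5.17 to 5.44 in PBS and 4.93 to 5.49 in SP, just above background in both groups. Its difference was -0.16 log2 units (adjusted p = 0.327 by limma), and its sign turned when arrays were centred (0.12). Without SP replicate 4 it was -0.29 and passed the test (adjusted p = 0.0396 by limma), in that 1 of 17 alternative settings only.

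Olr1 (NM_138648), the lectin-like receptor for oxidised lipoprotein, read 9.19, 7.58, 9.32 and 9.22 in PBS and 12.44, 12.28, 12.36 and 12.08 in SP. The SP values lay close together, and PBS replicate 2 lay more than 1 log2 unit below the other PBS arrays. Expression rose from 8.83 ± 0.83 to 12.29 ± 0.15 (SD, n = 4 each), by 3.46 log2 units (95% confidence interval 2.62 to 4.29, adjusted p = 0.000166 by limma). Without PBS replicate 2 the difference was 3.04. Msr1 and Olr1 were the only 2 of the 9 genes for which a difference above 1 log2 unit was itself significant (limma treat, adjusted p = 0.000779 and 0.00241).

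Cd68 (NM_001291058), a lysosomal membrane glycoprotein of phagocytes that can bind oxidised lipoprotein, read 11.77, 10.82, 11.85 and 11.93 in PBS and 13.03, 13.05, 12.75 and 12.83 in SP. The groups did not overlap, and PBS replicate 2 was again the low array. The increase from 11.59 ± 0.52 to 12.91 ± 0.15 (SD, n = 4 each) was 1.32 log2 units (95% confidence interval 0.78 to 1.86, adjusted p = 0.00252 by limma). Without PBS replicate 2 it was 1.07.

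Promoters were searched for motifs in a table of RefSeq sequence of mouse build GRCm38.p6, which holds 7 of the 9 genes, all but Msr1 and Scarb1. Matches were found for Olr1 and Cd68. The 250 bases before each start were searched on both strands for the AP-1 motif TGANTCA, the GAS motif TTCNNNGAA, the E-box CACGTG and longer kappaB and IRF motifs. No match of these overlapped another. The sequences below show the AP-1 motifs of both genes in capitals, 5′ to 3′ on the coding (minus) strand. The Olr1 window lies at chr6:129507209-129507235 and its motif begins 60 bases before the start, while the Cd68 stretch lies at chr11:69666171-69666420, with motifs that begin 149 and 24 bases before the start. The start used in the table for Olr1 lies inside the annotated gene, which extends to 129507350, so its window does too, and the 250 bases of Cd36, Cd163, Axl and Stab1 also overlap their own gene.
Olr1: ccgcgacggtTGAGTCAtcctctgcta
Cd68: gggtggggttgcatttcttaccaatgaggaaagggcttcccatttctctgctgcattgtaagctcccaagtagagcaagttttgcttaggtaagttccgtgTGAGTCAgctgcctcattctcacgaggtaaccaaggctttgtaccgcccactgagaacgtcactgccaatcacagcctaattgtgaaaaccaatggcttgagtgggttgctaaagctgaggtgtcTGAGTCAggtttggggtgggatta

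All 3 matches have the same 7 letters on the coding strand. The motif was present in 2 of the 7 receptor promoters and in 7.81% of 32851 promoters of the same length. None of the 7 held any of the other motifs, which were found in 1.63% (kappaB), 8.30% (GAS), 3.44% (IRF) and 7.15% (E-box) of all promoters. A match describes the letters of this window and is not a measured binding site.

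Cd36 (NM_001159555), the class B receptor and fatty acid transporter, read 12.62, 12.87, 12.12 and 12.25 in PBS and 10.77, 10.62, 9.94 and 11.16 in SP. It was lower in every SP array than in any PBS array. The mean fell from 12.47 ± 0.34 to 10.62 ± 0.51 (SD, n = 4 each), a difference of -1.84 log2 units (95% confidence interval -2.45 to -1.23, adjusted p = 0.000865 by limma). Scarb1 (NM_001205082), the class B receptor through which cells take cholesterol esters from high density lipoprotein, read 9.42, 9.45, 8.98 and 8.98 in PBS and 8.06, 8.44, 8.52 and 8.57 in SP. Those groups did not overlap either, and the mean fell from 9.21 ± 0.26 to 8.40 ± 0.23 (SD, n = 4 each). This difference was -0.81 log2 units (95% confidence interval -1.18 to -0.44, adjusted p = 0.00429 by limma), below 2-fold, and it was -0.53 after arrays were centred. Endothelial markers, described below, were lower in the same SP arrays. In such bulk preparations fewer cells of a type and less RNA per cell cannot be told apart.

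Stab1 (NM_138672), stabilin-1 of resident macrophages and sinusoidal endothelium, which takes up acetylated lipoprotein and the matrix protein SPARC, read 9.23, 9.36, 8.58 and 8.30 in PBS. The SP arrays read 9.95, 9.90, 8.82 and 10.12. SP replicate 3 fell within the PBS range and the other SP arrays lay above it. The difference was 0.82 log2 units (95% confidence interval 0.0536 to 1.60), with an adjusted p of 0.0756 by limma. Without SP replicate 3 it was 1.12 and passed the test (adjusted p = 0.0115), as it did with array weights (1.24, adjusted p = 0.00297) and with centred arrays (1.11, adjusted p = 0.00841). It passed in 4 of 18 alternative settings only, and not by the methods' t-test (adjusted p = 0.129).

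Cd163 (NM_001170395), the macrophage receptor for haemoglobin bound to haptoglobin, read 5.91, 5.63, 5.65 and 5.48 in PBS and 5.30, 5.40, 5.12 and 6.09 in SP. All of these values lay near background. SP replicate 4 was the highest of the 8 arrays while the other SP arrays were the lowest. The difference was -0.19 log2 units (95% confidence interval -0.66 to 0.27, adjusted p = 0.436 by limma), it was 0.0874 with centred arrays, and without SP replicate 4 it was -0.40 and passed the test (adjusted p = 0.0359). It passed in that 1 of 17 alternative settings only.

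Axl (NM_001190974), the receptor tyrosine kinase for Gas6, read 9.96, 9.48, 9.15 and 9.20 in PBS and 9.93, 10.20, 8.39 and 10.31 in SP. SP replicate 3 was the lowest of all 8 arrays, and SP replicates 2 and 4 were the highest. The difference over all arrays was 0.26 log2 units (95% confidence interval -0.69 to 1.21, adjusted p = 0.606 by limma). It was 0.70 without SP replicate 3 (adjusted p = 0.0294 by limma), and it passed the test in 2 of 18 alternative settings only. Mertk (NM_008587), the related receptor with which macrophages engulf apoptotic cells, read 9.57, 9.64, 8.82 and 8.80 in PBS and 8.50, 8.74, 7.47 and 9.37 in SP. The groups overlapped through SP replicate 4. Its difference was -0.69 log2 units (95% confidence interval -1.59 to 0.21, adjusted p = 0.172 by limma), and it passed the test under none of 18 alternative settings.

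**Figure D2:**
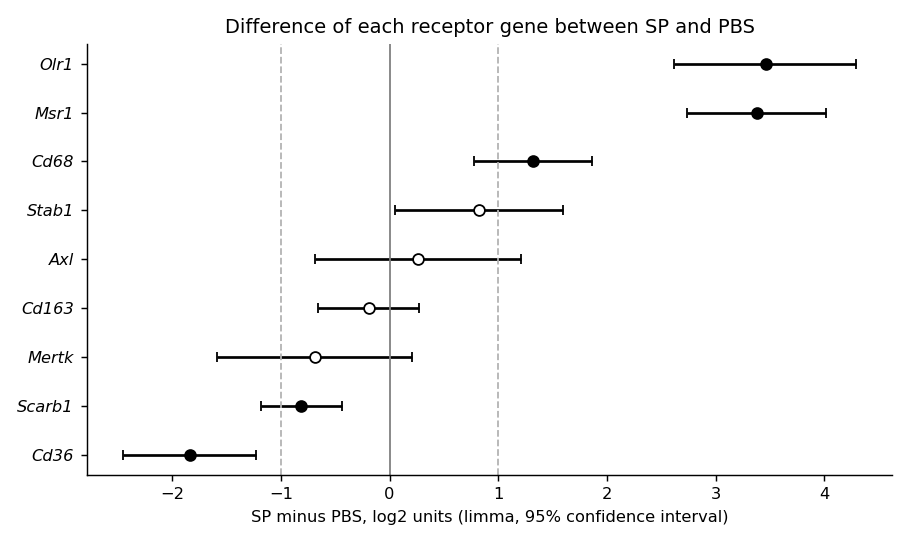
SP minus PBS difference of each receptor gene in log2 units, with its 95% confidence interval by limma. Filled points passed an adjusted p of 0.05, the solid line marks no difference and the dashed lines mark 2-fold. The intervals of Msr1 and Olr1 lie above 2-fold and that of Cd36 (-2.45 to -1.23) lies beyond 2-fold in the other direction, while that of Mertk spans -1.59 to 0.21.

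Related receptors were then compared within each array, which asks whether one gene of a pair differed more between the groups than the other and says nothing of their levels relative to each other. There were 5 pairs, tested by an exact two-sided permutation test over 70 arrangements with adjustment over the pairs, and 0.0286 is the smallest p that 4 against 4 arrays can give. Axl minus Mertk was 0.39, -0.15, 0.33 and 0.40 log2 units in PBS and 1.43, 1.47, 0.92 and 0.94 in SP. All SP values lay above all PBS values, so the balance between these phosphatidylserine-dependent receptors differed by 0.95 log2 units (95% confidence interval 0.46 to 1.44, exact permutation p = 0.0286, adjusted p = 0.0357), although neither gene passed the test on its own. The difference was 1.04 without SP replicate 3 and 0.82 without PBS replicate 2.

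Cd36 minus Scarb1 was 3.20, 3.42, 3.15 and 3.27 in PBS and 2.71, 2.18, 1.42 and 2.59 in SP. Cd36 thus fell further than Scarb1, by 1.03 log2 units (95% confidence interval of the difference -1.76 to -0.31, exact permutation p = 0.0286, adjusted p = 0.0357). The class A pair moved apart most, with Msr1 minus Marco at 0.97 to 1.67 in PBS and 4.53 to 5.30 in SP, a difference of 3.55 (95% confidence interval 2.94 to 4.15, exact permutation p = 0.0286, adjusted p = 0.0357). Cd163 minus Cd68 was -6.45 to -5.19 in PBS and -7.73 to -6.74 in SP, a difference of -1.52 (95% confidence interval -2.40 to -0.64, exact permutation p = 0.0286, adjusted p = 0.0357). Marco and Cd163 lay near background and differed by only -0.16 and -0.19. Msr1 minus Marco and Cd163 minus Cd68 therefore largely restate the rises of Msr1 and Cd68 given above. For Olr1 minus Msr1, the groups overlapped, at 1.38 to 2.56 in PBS and 1.29 to 2.76 in SP. That difference was 0.0744 with a 95% confidence interval of -0.93 to 1.08 (exact permutation p = 0.8, adjusted p = 0.8), and this interval holds unequal changes in either direction.

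**Figure D3:**
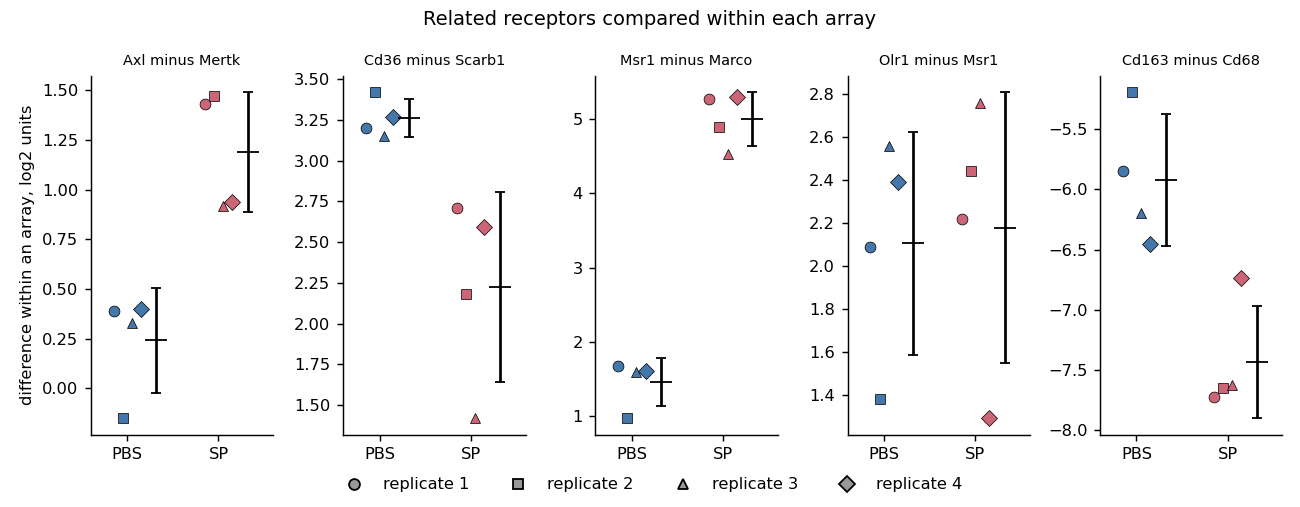
Difference between a pair of receptor genes within each array, in log2 units, for 4 PBS arrays (blue) and 4 SP arrays (red), with the mean and SD in black and an axis of its own for each pair, none of which starts at 0. The groups do not overlap in 4 of the 5 pairs, and they overlap for Olr1 minus Msr1 (1.38 to 2.56 against 1.29 to 2.76).

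Genes around these receptors were counted in 3 lists, of which 55.0%, 57.1% and 54.5% passed the test in the order given here, against 44.1% of all rows. Calls were more frequent among brighter rows, as described above. Among 20 other scavenger and lipoprotein receptors, 4 rose and 7 fell, 9 did not pass the test, and the median difference was -0.0646 log2 units. Lrp8, a receptor for apolipoprotein E and reelin, read 6.79 to 7.33 in PBS and 10.49 to 11.06 in SP, and rose 13.9-fold (adjusted p = 4.12e-06 by limma). Cxcl16, a membrane chemokine that also binds oxidised lipoprotein, rose 2.14-fold (adjusted p = 0.00533 by limma). The others that rose did so by less than 2-fold. Mrc1, the mannose receptor of macrophages, read 10.01, 9.10, 9.11 and 9.13 in PBS. In SP it read 5.89, 6.11, 6.15 and 8.40, so that 3 SP arrays were low and SP replicate 4 lay nearer to PBS. The difference was -2.70 log2 units (adjusted p = 0.00448 by limma). Ager, the alveolar type 1 receptor for glycated proteins, fell by 1.75, and Vldlr, a receptor for triglyceride-rich lipoproteins, by 1.16 log2 units (adjusted p = 0.0105 and 0.0118 by limma). Colec12, an endothelial scavenger receptor of the collectin family, differed by -1.40 (adjusted p = 0.0415 by limma) but passed the test in 7 of 18 alternative settings only. Stab2 and Cd5l read at background in both groups.

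Among 21 genes of lipid storage, transport and its regulation, 10 rose and 2 fell, with a median difference of 0.56 log2 units. Hilpda, a lipid droplet protein that inhibits triglyceride breakdown, read 9.06 to 9.67 in PBS and 11.46 to 12.07 in SP and rose 5.14-fold (adjusted p = 2.74e-05 by limma). Nr1h3, the oxysterol receptor LXRα, rose by 2.30 log2 units, with SP replicate 3 (8.18) below the other SP arrays (9.86 to 10.31). Abca1, the cholesterol exporter that Nr1h3 is known to induce, rose by 1.71, and there SP replicate 3 was the highest array (11.92 against 9.79 to 10.20). Npc1, which moves cholesterol out of lysosomes, rose by 1.63 log2 units (adjusted p = 0.000117 by limma). The adjusted p was 0.00384 for Nr1h3 and 0.0112 for Abca1 by limma. Plin2, Lipa, Acsl1 and Nceh1 also rose by at least 2-fold. Pparg, the nuclear receptor that is known to induce Cd36 in macrophages, read 7.94 to 8.74 in PBS and 6.52 to 7.56 in SP and differed by -1.5 log2 units, a fall without overlap (adjusted p = 0.00183 by limma). Dgat1, an enzyme of triglyceride synthesis, fell by 1.27 (adjusted p = 0.0185 by limma), with SP replicate 3 (12.63) inside the PBS range (12.47 to 13.09). Apoe, Abcg1, Lpl and Fabp5 did not pass the test.

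Among 22 ligands and partners of apoptotic cell clearance, 6 rose and 6 fell, and the median difference was 0.0185 log2 units. The largest falls were those of the bridging molecules Gas6 and Mfge8. Gas6, the ligand of Axl and of its relatives, read 10.13, 10.31, 9.97 and 9.74 in PBS and 7.86, 7.61, 6.49 and 8.72 in SP. It fell 5.17-fold without overlap of the groups (adjusted p = 0.00213 by limma). Mfge8, which links phosphatidylserine to integrins, fell 4.11-fold (adjusted p = 0.00307 by limma). Tyro3, the third receptor of the Axl family, read 6.54 to 7.16 in PBS and 5.23 to 5.38 in SP and fell 2.84-fold (adjusted p = 6.64e-05 by limma). Pros1, which encodes protein S, differed by -0.66 and did not pass the test (adjusted p = 0.214 by limma).

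Of the β chains of integrins that bind Mfge8, Itgb3 rose by 2.02 log2 units (adjusted p = 0.000213 by limma) while Itgb5 fell 2.37-fold (adjusted p = 0.0271 by limma). Itgb5 no longer passed when replicate 1 of either group or PBS replicate 2 was left out (adjusted p = 0.0541 to 0.0681 by limma). With all arrays it did not pass the methods' t-test (adjusted p = 0.0619), and it passed in 13 of 18 alternative settings. Its difference was -0.72 log2 units without both PBS replicate 2 and SP replicate 3. The engulfment adaptor Elmo1 rose by 1.03 log2 units (adjusted p = 0.000412 by limma). Of the Dock genes in the list, Dock1 fell by 1.69 log2 units (adjusted p = 0.00224 by limma). Dock2 differed by 0.30 log2 units and did not pass the test (adjusted p = 0.229 by limma). Adgrb1, a phosphatidylserine receptor, read at background in PBS (4.33 to 4.49) and 6.01 to 7.55 in SP. Its increase of 2.25 log2 units (adjusted p = 0.000523 by limma) is therefore not an exact fold. Of the proteases that shed surface receptors, Adam17, which can cleave Mertk, rose 3.06-fold (adjusted p = 2.52e-05 by limma). Adam10 differed by 0.0132 (adjusted p = 0.942 by limma), with a sign that changed under another quantile normalization (-0.12). The C1q genes C1qa, C1qb and C1qc, whose product coats dying cells, did not pass the test.

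**Figure D4:**
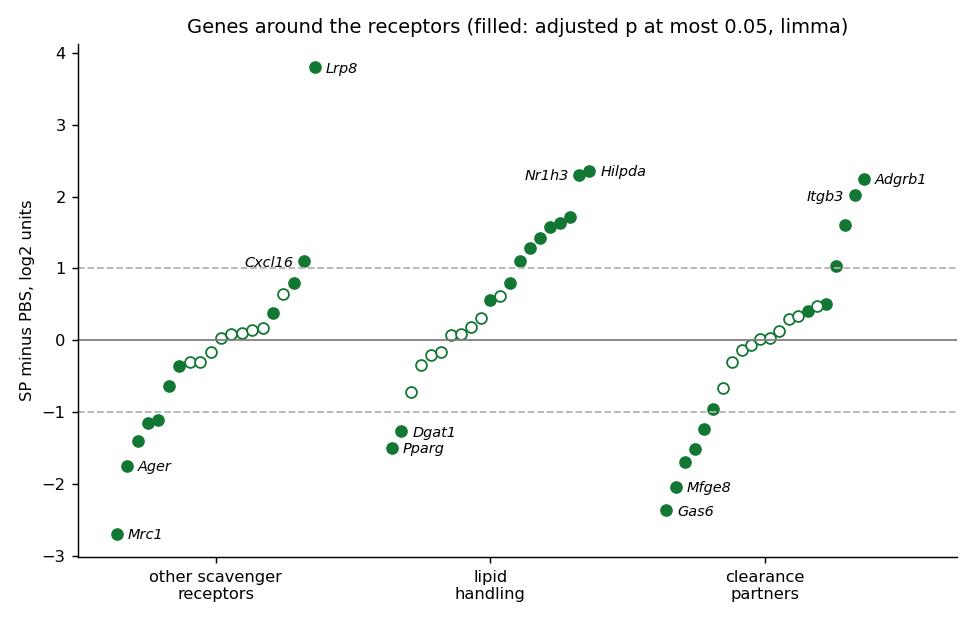
SP minus PBS difference in log2 units for 20 other scavenger receptors, 21 lipid handling genes and 22 clearance partners, sorted within each list, with points filled where limma's adjusted p was 0.05 or lower and names at both ends of each list. Dashed lines mark 2-fold. The lipid handling list has 10 filled points above 0 and 2 below, and each of the others has some on both sides.

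Markers of cell types that express these receptors moved with the groups, and their part in the results above was not tested. The study evaluated purity by microscopy of stained cells from the pneumonia samples and found it high. The few other cells there usually looked like alveolar macrophages, and no purity is given for the PBS samples. The 9 neutrophil markers were bright in every array, at a mean of 12.72 to 13.09 in PBS and 12.49 to 13.06 in SP. S100a8 (13.20 in PBS and 13.01 in SP on average) did not pass the test, Retnlg fell from 13.36 to 12.88, and of the 9 genes 3 were lower and none higher, all by less than 2-fold. Alveolar macrophage markers, whose cells carry Msr1, Marco, Mrc1 and Pparg, were lower in SP for 7 of 10 genes and higher for none. Their mean was 9.01 to 9.70 in PBS and 7.33 to 8.08 in SP, and the brightest were Ear2 (11.50 and 10.01 on average) and Car4 (11.39 and 10.14). The markers did not move as one: Krt19 fell most (11.63 to 8.76), while Siglecf, Atp6v0d2 and Ctsk did not pass the test (adjusted p = 0.0841, 0.958 and 0.123 by limma). Msr1, Olr1 and Cd68 rose in the same SP arrays, and which cells carried their RNA was not tested.

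Monocyte markers rose for 5 of 6 genes, from a mean of 8.24 to 8.77 in PBS to 9.97 to 10.64 in SP. Plac8 rose from 9.93 to 11.85 on average, while Fn1, at 10.01 and 10.52, did not pass the test. Their mean was highest in SP replicate 4, as were 7 of the 9 receptors among the SP arrays. The other end of the order differed: the monocyte mean was lowest in SP replicate 2 (9.97), whereas 7 of the 9 receptors were lowest in SP replicate 3. Interstitial macrophage markers were divided, with 3 of 8 genes higher and 2 lower, at a mean of 7.87 to 8.79 in PBS and 7.91 to 8.73 in SP. Csf1r (10.61 and 11.34 on average) did not pass the test and Lyve1 rose from 10.41 to 10.98.

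Endothelial markers fell for 10 of 11 genes, from a mean of 10.05 to 11.00 in PBS to 8.44 to 9.57 in SP, among them Calcrl (12.30 to 10.67) and Cdh5 (11.91 to 10.92). Within SP they were lowest in SP replicate 3 for 9 genes and highest in SP replicate 4 for 9, and within PBS they were highest in PBS replicate 2 for all 11. Msr1, Cd36, Cd163, Stab1, Axl and Mertk had the same lowest and highest SP arrays, and Cd36, Scarb1, Stab1 and Mertk the same highest PBS array. This order was not particular to endothelium: alveolar type 2 markers were lowest in SP replicate 3 for 7 of 10 genes, highest in SP replicate 4 for 9 and highest in PBS replicate 2 for 9, fibroblast markers had the same lowest and highest SP arrays for 7 and 9 of 10 genes, and so had the means of both macrophage lists. Alveolar type 2 markers fell for 8 of 10 genes, from 11.62 to 12.16 to a mean of 9.95 to 11.20, and the brightest were Sftpc (13.33 and 12.39) and Sftpa1 (12.90 and 11.96). Fibroblast markers, of which 3 of 10 fell and 1 rose, had means of 7.50 to 8.25 in PBS and 7.00 to 8.59 in SP, with Dcn falling from 11.10 to 9.26 and Mfap4 from 9.91 to 8.57. Eosinophil markers were dim (5.05 to 5.77 in PBS and 5.17 to 5.50 in SP), with 3 of 6 genes at background in PBS and 1 in SP. Their brightest genes were Alox15, which fell from 7.41 to 6.05, and Ccr3, at 6.28 and 6.18.

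**Figure D5:**
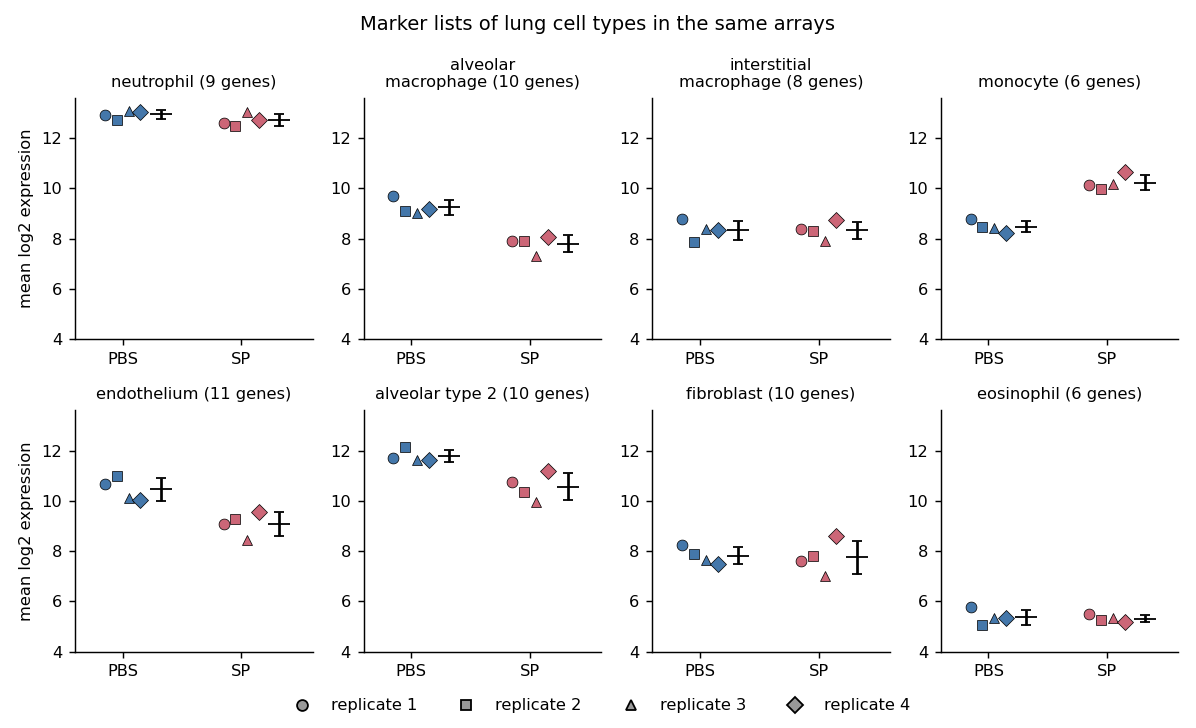
Mean log2 expression of 8 marker lists in each array, with PBS in blue, SP in red, a symbol for each replicate number and the mean with its SD in black. Alveolar macrophage, endothelial and alveolar type 2 lists are lower in all SP arrays, the monocyte list is higher in all SP arrays (9.97 to 10.64 against 8.24 to 8.77), and the neutrophil list overlaps between groups. Heights cannot be compared between lists.

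For each receptor, the 2 genes with the nearest profile were found among 19836 named genes by the root mean square difference of log2 values over the 8 arrays, after each gene was centred on its own mean. This is a description of these arrays. The profile of Msr1 was nearest to those of Ch25h (0.18 log2 units), which makes an oxysterol, and Ms4a6d (0.21). Olr1 was nearest to Slfn8 (0.16) and Bcl2a1b (0.17), and Cd68 to the transcription factors Irf9 and Elf4 (both 0.11). Cd36 had the closest neighbours, Jup (0.0705), a junction protein, and Nme7 (0.0755), and Scarb1 was nearest to Shroom2 (0.0923) and Fam13c (0.10). Axl was nearest to Gja5 (0.15), a connexin of arterial endothelium, and Plekho1 (0.16). Mertk was nearest to Hspg2 (0.12), the basement membrane proteoglycan perlecan, and to Pros1 (0.14). Stab1 was nearest to Hivep3 (0.20) and Jade2 (0.21), and Cd163, close to background, to Cinp and Rpl14-ps1 (both 0.10).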

How the data were processed

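RNA of 8 lung neutrophil samples, 4 PBS and 4 SP, was measured on Affymetrix mouse gene arrays, and groups were taken from the titles. According to the methods, the authors summarised the probe signals by robust multi-array averaging with quantile normalization and median polish, and the deposited values are log2 signals, 1 row per gene or transcript. They are relative within an array, so a change of total RNA cannot be read from them. Symbols came from RefSeq (GRCm38.p6), which named 19915 of 24625 rows (80.9%). Fabp4, Plet1, Ly6c2, Ly6g and Eif2s3y had no matched row.

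Rows were compared by limma 3.58.1 in R 4.3.3 (lmFit and eBayes, two-sided, no covariates, Benjamini-Hochberg adjustment over all rows), with thresholds of an adjusted p of 0.05 and 2-fold (1 log2 unit). Pairs were compared by an exact permutation test. Confidence intervals (95%) of pairs used the spread of that pair in both groups. Scripts were tested on simulated data and ran in Python 3.11.15. The number of arrays limits the precision.

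The receptors and lists were chosen with earlier results of these data known. Named were the 9 receptors, Marco, Gas6, Pros1, Tyro3, Adam10 and Adam17, the 4 largest rises and falls at 2-fold of each list around the receptors, the 2 brightest genes of each marker list and the 2 nearest profiles. Plin2, Lipa, Acsl1, Nceh1, Apoe, Abcg1, Lpl, Fabp5, Stab2, Cd5l, Itgb5, Dock2, the C1q genes, Krt19, Siglecf, Atp6v0d2 and Ctsk were named after their values were seen. Alternatives were array weights, centred arrays, a robust prior with a trend, the methods' t-test (an ANOVA of both groups), a block for the replicate number, another quantile normalization, dim rows left out, 1 row per symbol, limma treat, each array left out, and, chosen after seeing the data, PBS replicate 2 and SP replicate 3 both left out; pairs were also compared by limma over the 5 pairs.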

Additional observations from a re-analysis of the deposited data

Results flagged for a closer look

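In groups of 4 arrays, a single array was taken to stand apart where its gap to the nearest of the others, divided by the range of the group, was above the 95% critical value of Dixon's ratio. Of 76 groups tested, 8 had such an array, where chance gives about 1 in 20 for independent groups. These groups share the same arrays and the pairs reuse genes, so whether 8 is more than chance gives was not tested. PBS replicate 2 was low for Olr1 (7.58, others 9.19 to 9.32) and for Cd68 (10.82, others 11.77 to 11.93). It was also low for Axl minus Mertk (-0.15, others 0.33 to 0.40) and for Msr1 minus Marco (0.97, others 1.59 to 1.67). SP replicate 3 was low for Stab1 (8.82, others 9.90 to 10.12). Mrc1 was high in PBS replicate 1 (10.01, others 9.10 to 9.13) and, within SP, in SP replicate 4 (8.40, others 5.89 to 6.15). SP replicate 4 was also high for Cd163 minus Cd68 (-6.74, others -7.73 to -7.63).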

How the results depend on the processing

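Msr1 and Olr1 passed the test in all 18 alternative settings, with differences of 3.16 to 3.66 and 3.02 to 3.74 log2 units, and Cd36 (-2.02 to -1.48), Scarb1 (-0.89 to -0.53) and Cd68 (1.07 to 1.61) in all but limma treat against 1 log2 unit. Under treat, 1572 rows were called (660 higher, 912 lower), 2 receptors (0 lower), 1 higher and 0 lower among other scavenger receptors, 2 and 0 among lipid handling genes, and 3 and 1 among clearance partners, since it asks for more than 2-fold. Centring arrays gave 18255 calls (14219 higher) and 9 higher among other scavenger receptors, and turned the sign of Cd163 (0.0874) and Marco (0.12), since it adds 0.28 to every difference. Leaving out dim rows gave 2971 higher calls of fewer rows tested. Another quantile normalization turned Adam10 (-0.12) and Olr1 minus Msr1 (-0.12), and shifted differences by a median of -0.0512.

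Without any 1 array, 3 to 5 receptors were higher, with Stab1 and Axl added without SP replicate 3, and also 5 without both PBS replicate 2 and SP replicate 3 (Stab1 1.28, Axl 0.71). Higher calls over all rows ranged from 3528 (without PBS replicate 1) to 5301, lower calls among other scavenger receptors from 4 (when PBS replicate 2 or 3 or SP replicate 1 was left out) to 7 and among lipid handling genes from 1 (without SP replicate 1, where Dgat1 was lost) to 2. Adam10 ranged from -0.0641 to 0.14. Pair differences ranged from 0.82 to 1.04 for Axl minus Mertk, -1.20 to -0.77 for Cd36 minus Scarb1, 3.38 to 3.70 for Msr1 minus Marco, -1.75 to -1.27 for Cd163 minus Cd68 and -0.17 to 0.37 for Olr1 minus Msr1. With 3 arrays in a group the permutation test cannot pass the threshold (adjusted p = 0.0714). Limma over the pairs gave adjusted p-values of 0.006, 0.00393, 1.02e-11 and 8.31e-05 for the first 4 and 0.813 for the last. That fit pooled the variance of the 5 pairs, although they share the same arrays and Msr1 enters more than one of them. Its p-values rest on this pooling and add no independent support to the permutation test.

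The replicate numbers did not pair the arrays: deviations of same-numbered arrays correlated at 0.0156, 0.0304, 0.35 and -0.274, and 1 of 4 numbers correlated best with itself. With the replicate number as a block, 9842 rows and the same count of 5 receptors were called, and Colec12 was lost (adjusted p = 0.0748). The pair differences were the same (0.95, -1.03, 3.55 and -1.52), but with 4 pairs of arrays the exact test could not pass the threshold (adjusted p = 0.156).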
